A study of Mus musculus with 17 samples.

Results

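The genes described here are 10 that the mucous epithelium of the stomach is known to express, measured by RNA sequencing in Kupffer cells (KCs) sorted from mouse liver. KCs are macrophages that reside in the liver sinusoids. They are *Tff1*, *Tff2*, *Gkn1*, *Gkn2*, *Muc5ac*, *Muc6*, *Agr2*, *Ctse*, *Cldn18* and *Mucl3*, which are 10 of the 25124 genes listed in each of the 3 deposited tables. They were chosen because *Tff1*, *Gkn1*, *Agr2* and *Mucl3* are among the largest rises with tumour in these same data, so their values in tumour-bearing against tumour-free livers are a description. Limma calls of the members in these contrasts are given once, as counts beside those of all genes, and are no evidence. The values are on a log2 scale in which 1 unit is a doubling.

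KCs were sorted as 2 subsets, TIM4+CD206+ and TIM4+CD206hi, from untreated tumour-free mice and from mice that had received KPC cells through the portal vein 2 weeks earlier. KPC cells are mouse pancreatic adenocarcinoma cells, of which the study used more than 1 line, and the labels do not name the line. Each subset had 3 tumour-free and 3 tumour-bearing samples. The third table held KCs of untreated mice, 3 samples of Id3f/f mice, in which *Id3* is flanked by recombination sites, and 2 samples of Clec4fCreId3f/f mice, in which the KC gene *Clec4f* drives Cre and both copies of *Id3* carry those sites. The age and strain of the sequenced mice are not given in the sources used here, and the study counts the samples of the third table as mice. Whether a sample of the subsets is 1 animal or a pool is not given in the sources used here, so that their p-values measure the spread between these samples only. The gate kept live CD45+ cells with F4/80 and TIM4 and removed cells with markers of T, B, NK cells and neutrophils, and no epithelial marker was named among those gated out.

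Trefoil peptides, gastrokines and gel-forming mucins are made together by the mucous cells of the stomach. *Tff1*, *Gkn1*, *Gkn2* and *Muc5ac* mark the surface and pit cells, and *Tff2* and *Muc6* mark the neck and gland cells below them. *Agr2* encodes a disulfide isomerase of the endoplasmic reticulum that mucins need for their maturation. *Ctse* encodes cathepsin E, an intracellular aspartic protease, and *Cldn18* a tight junction claudin with a lung and a stomach isoform. *Mucl3* encodes a mucin-like membrane protein. The healthy pancreas makes little of these products, and pancreatic ductal neoplasia is known for a gastric-like programme with *Muc5ac*, *Tff1* and *Agr2*.

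In the GRCm38 assembly (GENCODE M21), several of the genes are neighbours. *Tff1* (chromosome 17, 31161395 to 31165277, minus strand) and *Tff2* (chromosome 17, 31141049 to 31144282, minus strand) are 17.1 kb apart, and *Tff3* (chromosome 17, 31125306 to 31129646) follows 11.4 kb beyond *Tff2*. *Gkn1* (chromosome 6, 87345650 to 87350942, minus strand) and *Gkn2* (chromosome 6, 87373357 to 87379497, plus strand) point away from each other, 22.4 kb apart, with *Gkn3* 3.76 kb beyond *Gkn2*. *Muc6* (chromosome 7, 141633456 to 141655319, minus strand) and *Muc5ac* (chromosome 7, 141788972 to 141819231, plus strand) lie in the cluster of gel-forming mucins, with *Muc2* between them. The remaining members are *Agr2* (chromosome 12, 35992907 to 36004087), *Ctse* (chromosome 1, 131638306 to 131675505), *Cldn18* (chromosome 9, 99689461 to 99717267) and *Mucl3* (chromosome 17, 35635752 to 35643695). The library kit does not mark strand, and an annotated gene on the other strand overlaps *Tff1*, *Cldn18* and *Mucl3*. For *Mucl3* this is *Sfta2*, whose highest value in any tumour-bearing sample was 1.61 in TIM4+CD206+ KCs.

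The bases before the start of *Gkn1*, *Gkn2* and *Muc6* are shown because the 2 gastrokine genes had large differences with tumour and *Muc6* had none. Each line holds the 250 bases upstream of the RefSeq start on the coding strand, in GRCm38.p6, and capitals mark matches to the TATA box (TATAAA), to a motif of GATA factors (AGATAA) and to a motif of KLF factors (CCACACCC).
Gkn1 (chr6:87350916-87351165, minus strand): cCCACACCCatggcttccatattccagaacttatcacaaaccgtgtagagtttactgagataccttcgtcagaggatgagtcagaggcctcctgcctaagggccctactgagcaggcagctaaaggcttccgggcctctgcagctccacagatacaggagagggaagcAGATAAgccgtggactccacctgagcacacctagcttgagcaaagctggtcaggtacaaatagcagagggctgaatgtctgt
Gkn2 (chr6:87373115-87373364, plus strand): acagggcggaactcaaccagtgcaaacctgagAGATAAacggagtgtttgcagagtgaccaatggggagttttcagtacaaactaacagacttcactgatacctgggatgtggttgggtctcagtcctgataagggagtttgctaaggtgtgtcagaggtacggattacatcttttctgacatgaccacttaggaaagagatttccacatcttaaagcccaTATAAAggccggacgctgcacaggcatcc
Muc6 (chr7:141655394-141655643, minus strand): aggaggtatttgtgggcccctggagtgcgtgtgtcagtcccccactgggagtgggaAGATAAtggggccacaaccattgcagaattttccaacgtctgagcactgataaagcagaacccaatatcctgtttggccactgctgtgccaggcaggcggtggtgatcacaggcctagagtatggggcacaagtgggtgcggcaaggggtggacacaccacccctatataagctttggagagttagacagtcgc

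Promoters of 6 members were in the RefSeq table used, those of *Gkn1*, *Gkn2*, *Muc6*, *Cldn18*, *Agr2* and *Mucl3*. With motifs searched on both strands, that of GATA factors was in a promoter of 4 of these 6 members, *Gkn1*, *Gkn2*, *Muc6* and *Cldn18*. It was in 9.99% of all 32851 promoters of the same length. The TATA box letters were in that of *Gkn2* only (12.4% of all promoters), and the KLF letters in that of *Gkn1* only (3.2%). The forkhead motif TGTTTAC (3.17%) and the HNF1 motif (0.371%) were in none of the 6. The GATA letters were thus in promoters of members with and without a difference, and a match is a description, not a site. *Cldn18* has 2 listed starts in the table, and its promoter at chr9:99710064-99710313 held no match. Members are thus counted per gene, while the share of all promoters is per promoter. The gene-level values do not separate the isoforms of *Cldn18*.

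In TIM4+CD206+ KCs, the trefoil and gastrokine genes had the 4 largest differences with tumour among the members. *Tff1* was 5.18, 5.20 and 5.13 in the tumour-free samples and 11.26, 10.35 and 11.06 in the tumour-bearing samples. Every tumour-bearing sample was over 5 log2 units above every tumour-free one. *Tff2* was 4.82, 4.85 and 5.08 against 10.04, 9.65 and 9.69, with no overlap and with a narrower spread than *Tff1* in the tumour-bearing samples. *Gkn1* was 4.87, 4.83 and 4.88 against 10.20, 9.96 and 10.52. *Gkn2*, whose product pairs with that of *Tff1*, was 4.40 to 4.44 against 7.97, 7.90 and 8.93, so that replicate 3 stood 0.96 above the next sample.

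The differences of group means in TIM4+CD206+ KCs were 5.72 for *Tff1*, 5.37 for *Gkn1*, 4.88 for *Tff2* and 3.84 for *Gkn2*. They were the 1st, 2nd, 6th and 23rd largest of the 13233 genes tested, an order that follows from how the genes were picked. The group means (± SD, n = 3 and 3) were 5.17 ± 0.03 and 10.89 ± 0.48 for *Tff1* and 4.86 ± 0.03 and 10.23 ± 0.28 for *Gkn1*.

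The genes of mucin assembly, junction and proteolysis had smaller differences in TIM4+CD206+ KCs. *Agr2* was 4.46, 4.44 and 4.47 in tumour-free and 7.52, 7.98 and 7.81 in tumour-bearing samples, a difference of 3.31. *Ctse* had the highest deposited tumour-free values of the 10 genes, 6.42, 6.20 and 6.15, and was 9.61, 8.43 and 9.04 with tumour, a difference of 2.77. Cathepsin E is known from immune cells as well as from stomach. These values are not divided by exon length, which is 3.17 kb for *Ctse* and 0.703 kb for *Tff1*. They thus do not show that tumour-free samples held more *Ctse* transcript than that of other members. *Mucl3* was 4.43, 4.42 and 4.49 against 6.49, 6.86 and 6.97 (difference 2.33). *Cldn18* was 4.28, 4.31 and 4.32 against 5.87, 5.47 and 6.25 (difference 1.56). For these 4 genes the groups did not overlap.

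The gel-forming mucins were the exception in TIM4+CD206+ KCs. *Muc5ac* was 3.02, 3.01 and 3.02 in tumour-free samples and 3.02, 3.38 and 4.34 in tumour-bearing ones, so that replicate 1 was at the tumour-free level and replicate 3 was the highest. *Muc6* lay between −1.50 and −1.48 in all 6 samples. Both genes were below the filter for testing, which asked for the value of 10 counts, 3.32, in at least 3 samples.

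The same genes were high in tumour-bearing livers in TIM4+CD206hi KCs, and *Muc5ac* was high there too. *Gkn1* was 4.60, 4.61 and 4.65 in tumour-free samples and 11.15, 10.51 and 10.83 in tumour-bearing samples, the largest difference of all genes tested there (6.21). *Tff1* was 4.70, 4.86 and 4.83 against 11.39, 10.30 and 11.19 (difference 6.16). Neither gene's groups overlapped. *Gkn2* was 4.20, 4.21 and 4.25 against 10.07, 9.40 and 10.08 (difference 5.63). *Tff2* was 4.38, 4.47 and 4.88 against 9.25, 10.75 and 9.26 (difference 5.18), and its replicate 2 stood 1.49 above the next tumour-bearing sample.

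*Mucl3* was 4.20, 4.20 and 4.24 in tumour-free and 9.65, 9.27 and 10.72 in tumour-bearing TIM4+CD206hi KCs, a difference of 5.67. *Agr2* was 4.01, 4.12 and 4.06 against 9.05, 9.63 and 9.13 (difference 5.21). *Cldn18* was 3.77, 3.77 and 3.81 against 8.43, 8.32 and 8.97 (difference 4.79). The groups of these 3 genes did not overlap. In TIM4+CD206+ KCs *Cldn18* and *Mucl3* had the lowest tumour-bearing levels of the tested members. *Ctse* was 6.65, 7.11 and 7.12 against 10.99, 10.47 and 11.11 (difference 3.90), again with the highest deposited tumour-free values of the 10.

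*Muc5ac*, the gel-forming mucin of surface cells, was 3.15, 3.53 and 3.19 in tumour-free and 6.52, 5.26 and 8.48 in tumour-bearing TIM4+CD206hi KCs. The difference was 3.46, and the tumour-bearing samples ranged over 3.21 units, the widest range of any member. *Muc6*, the mucin of gland cells, was 3.06, 3.44 and 3.37 against 3.38, 2.96 and 3.24, and its groups overlapped (difference −0.10). It was the member without a higher value in tumour-bearing samples in either subset.

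**Figure D1:**
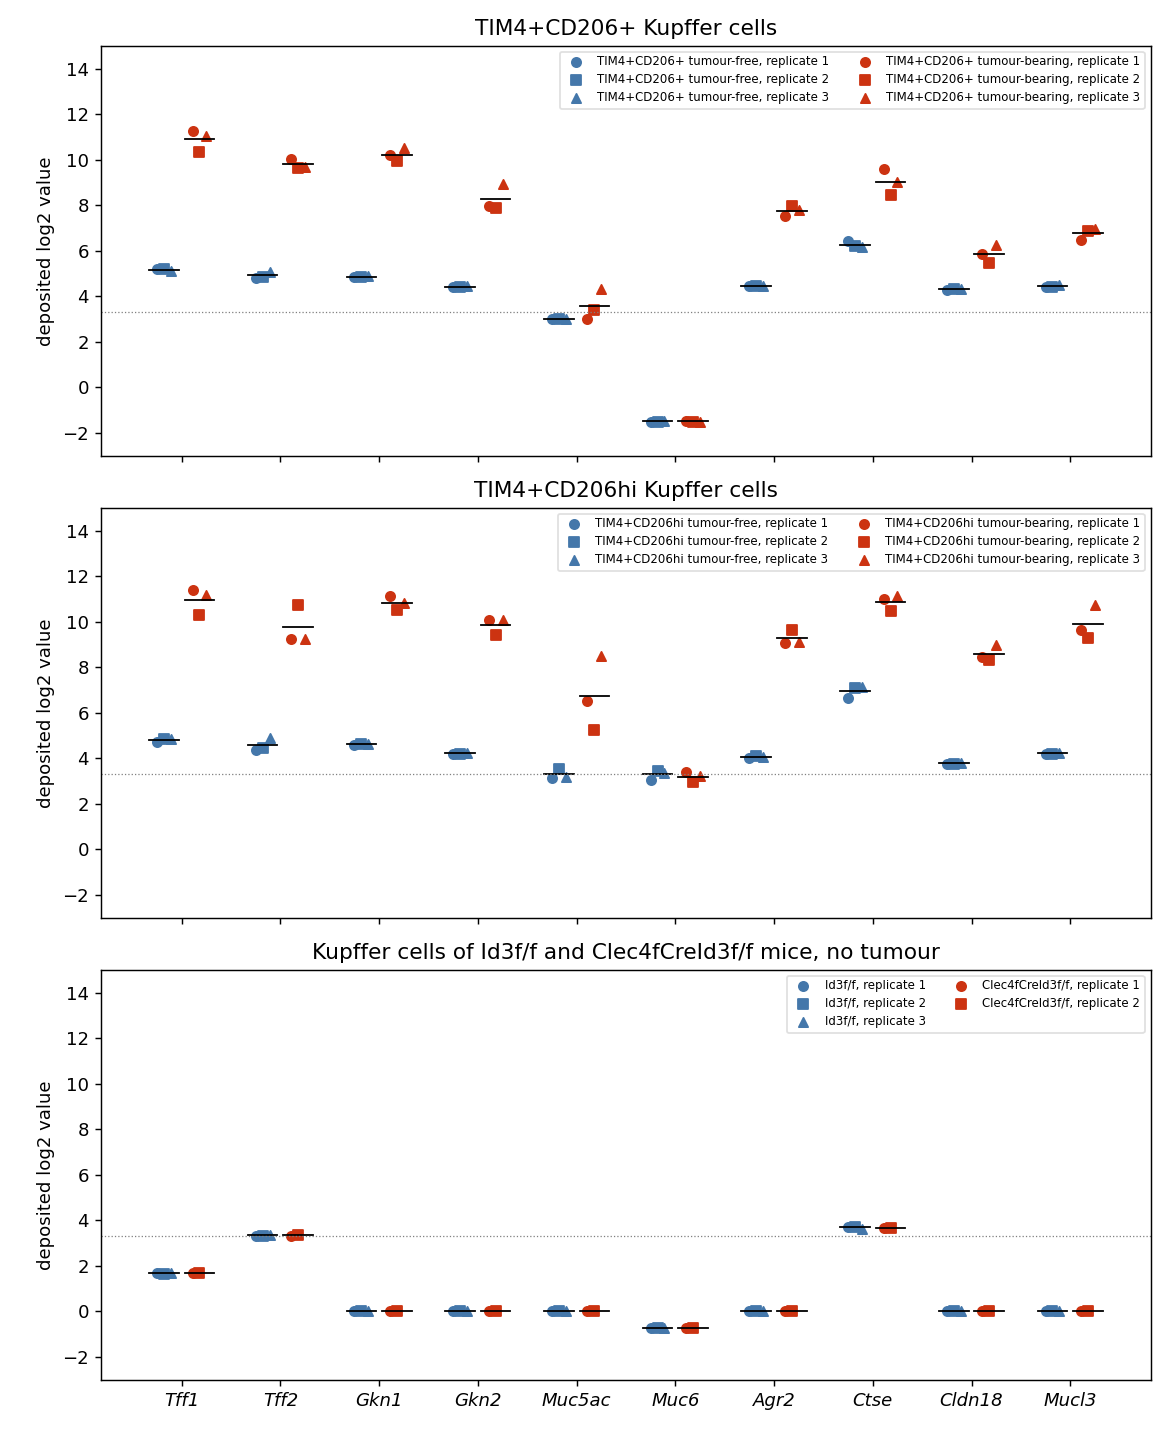
Deposited log2 values (vertical axes) of the 10 genes in every sample of the 3 tables, with symbols for replicates, black bars for group means and a dotted line at the value of 10 counts. Tumour-bearing samples lie above tumour-free ones for 8 genes in both subsets and for *Muc5ac* by a wide gap in TIM4+CD206hi KCs only, *Muc6* is flat, and no genotype difference is seen in the third panel, where points at 0 are genes listed at 0.

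Of the 10 members, 8 passed the filter in TIM4+CD206+ KCs and all 8 had an adjusted p under 0.05 towards higher values in the limma fit across all genes, where 2.55% of tested genes did, 0.998% were lower and 3.54% were called in either direction. For TIM4+CD206hi KCs 10 passed the filter and 9 had an adjusted p under 0.05 towards higher values, beside 5.21% of all tested genes, 2.03% lower and 7.23% in either direction. Since the members were picked from these contrasts, nothing is read from these counts. The groups did not overlap, with tumour-bearing samples higher, for 9 members in each subset, beside 12.9% and 15.6% of all tested genes. One of the 9 in TIM4+CD206+ KCs was *Muc5ac*, which was below the filter and whose groups were 0.0015 apart, and the other 8 were the tested members. Groups did not overlap in the other direction for 0 members, beside 10.5% and 15.2%. Without tumour-free replicate 1, tumour-free replicate 3 or tumour-bearing replicate 1, *Muc5ac* lost its call in TIM4+CD206hi KCs, and the count was 8.

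The low tumour-free values need care in reading. The values have the features of a regularized log transformation, which draws genes with few reads towards their mean over the table, so that a tumour-free value near 4 or 5 does not show that reads were present. The 6 members that the third table lists at 0 had tumour-free values of 3.01 to 4.88 in the TIM4+CD206+ table. The same transformation understates the differences of genes with few reads. It also lets a gene pass the filter through its tumour-bearing samples.

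Side by side, the difference with tumour was larger in TIM4+CD206hi than in TIM4+CD206+ KCs for 9 of the 10 genes. It was larger by 0.30 for *Tff2*, 0.45 for *Tff1* and 0.84 for *Gkn1*, and by 3.34 for *Mucl3*, 3.23 for *Cldn18* and 2.90 for *Muc5ac*. *Gkn2* (1.79), *Agr2* (1.89) and *Ctse* (1.13) lay between these. *Muc6* differed by −0.10 in one subset and by less than 0.01 in the other. The 10 genes most like the members, described below and chosen by that likeness, also had larger differences in TIM4+CD206hi KCs. The pattern is thus not particular to the members, and its share over all genes was not computed. The tables were normalized and transformed separately, and the difference between the subsets was not tested.

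**Figure D2:**
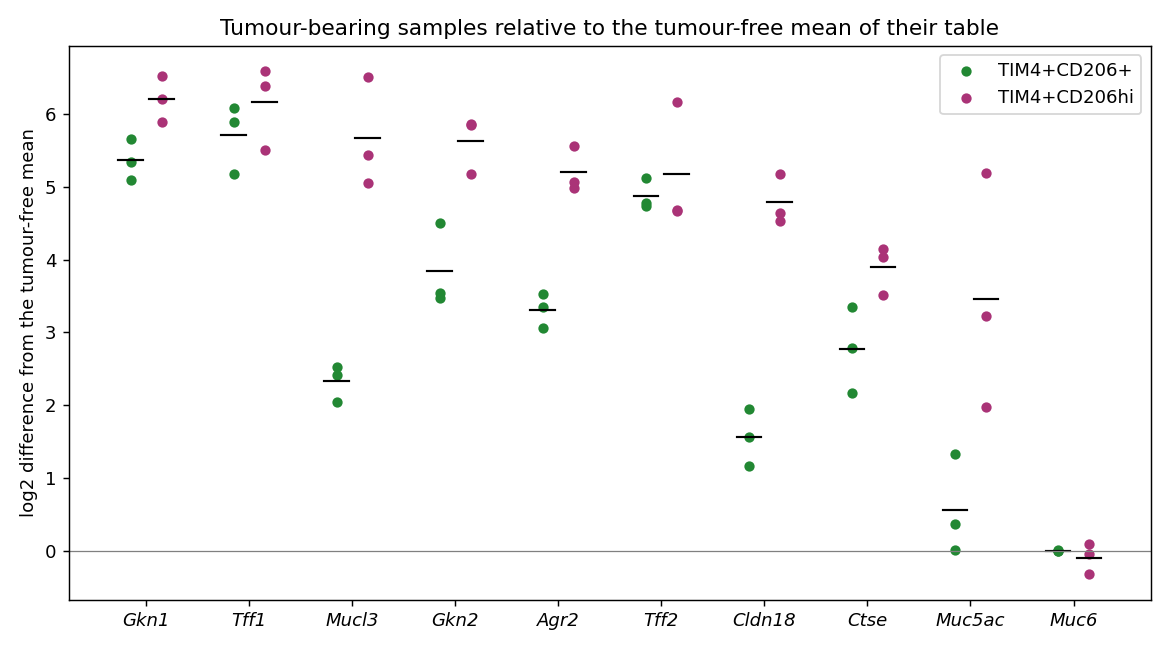
Log2 value of each tumour-bearing sample minus the tumour-free mean of its own table (vertical axis) for the 10 genes, with bars at the mean of the 3 samples and colours for the subset. The points of *Gkn1*, *Tff1* and *Tff2* lie close in both subsets, and those of *Mucl3* and *Cldn18* lie over 2 units higher in TIM4+CD206hi KCs.

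Levels between genes were compared per kilobase of exon, as the log2 value minus the log2 of the exon length. In tumour-bearing TIM4+CD206+ KCs the order was *Tff1* (11.39 ± 0.48, SD, n = 3), *Tff2* (10.57 ± 0.22), *Gkn1* (9.90 ± 0.28), *Gkn2* (8.61 ± 0.57), *Agr2* (7.40 ± 0.23), *Ctse* (7.36 ± 0.59), *Mucl3* (5.39 ± 0.25), *Cldn18* (3.71 ± 0.39), *Muc5ac* (0.15 ± 0.68) and *Muc6* (−4.72 ± 0.01). *Agr2* and *Ctse* were the only neighbours in this order whose samples overlapped. In tumour-bearing TIM4+CD206hi KCs the order was *Tff1* (11.47 ± 0.58), *Tff2* (10.53 ± 0.86), *Gkn1* (10.51 ± 0.32), *Gkn2* (10.19 ± 0.39), *Ctse* (9.19 ± 0.34), *Agr2* (8.90 ± 0.31), *Mucl3* (8.50 ± 0.75), *Cldn18* (6.42 ± 0.35), *Muc5ac* (3.33 ± 1.62) and *Muc6* (−0.04 ± 0.21). There the samples of neighbours overlapped from *Tff1* to *Gkn2* and from *Ctse* to *Mucl3*. The small secreted peptides headed both orders and the large mucins ended them. In TIM4+CD206+ KCs both mucins were below the filter. *Muc6* lay between −1.50 and −1.48 in every sample there, a regularized value that does not show reads. Its place and its small SD in that order thus show no measured level. *Krt19*, a keratin of ductal epithelium, was 12.53 ± 0.16 and 12.61 ± 0.07 on the same scale, above every member.

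The members made up a small share of the summed values, which are not divided by exon length. Summed on the linear scale, they were 6.85 to 7.63 ppm of the sum of all values in tumour-free and 118 to 173 ppm in tumour-bearing TIM4+CD206+ KCs. They were 7.53 to 8.84 ppm against 253 to 343 ppm in TIM4+CD206hi KCs. The 3 samples of each group lay apart from the other group in both subsets. The tumour-free shares rest on regularized values, which do not show that reads were present.

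The tumour-bearing samples did not rank alike for every member. Among TIM4+CD206hi KCs replicate 2 was the lowest of the 3 tumour-bearing samples for 8 of the 10 genes and the highest for the other 2, *Tff2* and *Agr2*. In TIM4+CD206+ KCs replicate 2 was the lowest for 6 genes and the highest for *Agr2*. *Gkn3*, a gastrokine of mucous neck cells in mice and no member, was 6.17, 9.44 and 5.51 in the tumour-bearing TIM4+CD206hi samples, so that it was highest in replicate 2 as *Tff2* was. *Gkn2*, *Muc5ac*, *Cldn18* and *Mucl3* were highest in replicate 3 in both subsets, though *Gkn2* in TIM4+CD206hi KCs was so by only 0.004 over replicate 1. With 3 samples these orders are values and were not tested.

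**Figure D3:**
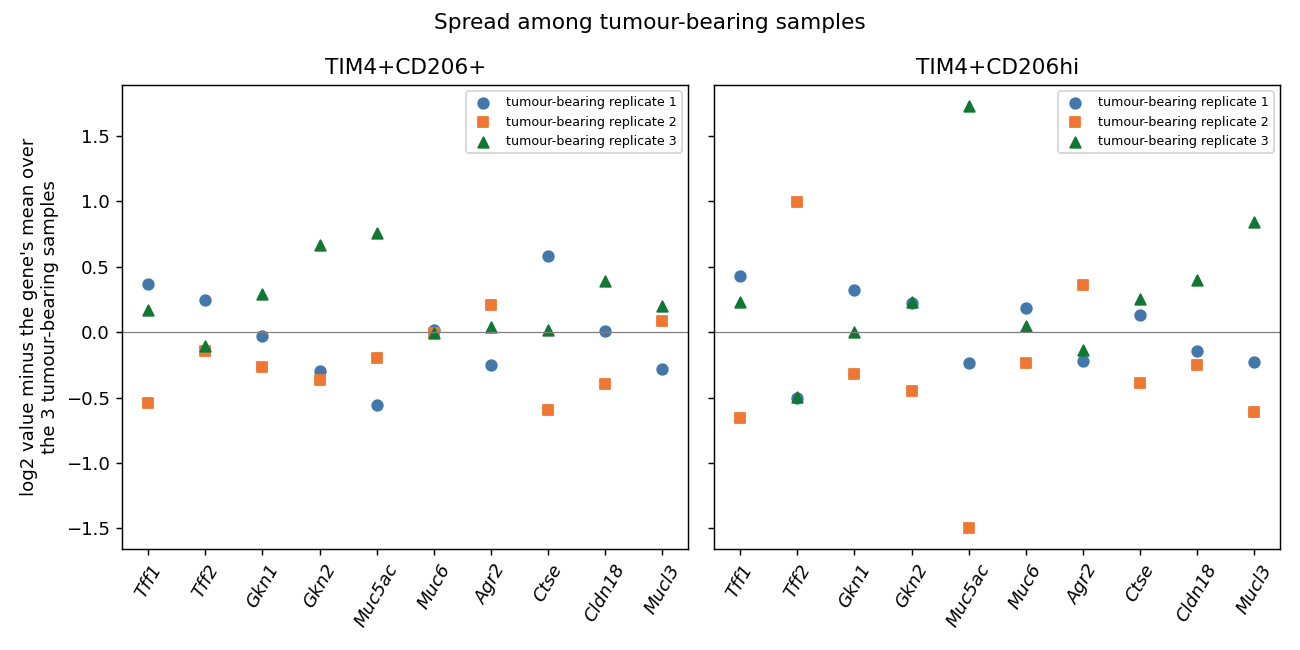
Log2 value of each tumour-bearing sample minus the mean of the 3 tumour-bearing samples (vertical axes) for the 10 genes in both subsets, with 1 symbol per replicate. In TIM4+CD206hi KCs replicate 2 lies lowest for 8 genes and highest for *Tff2* and *Agr2*, and *Muc5ac* has the widest spread.

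In KCs of Id3f/f and Clec4fCreId3f/f mice, which had no tumour, the gastric genes were near or at the floor. The targeted gene *Id3* was 12.58, 12.46 and 12.82 in Id3f/f and 9.83 and 9.82 in Clec4fCreId3f/f samples. *Gkn1*, *Gkn2*, *Muc5ac*, *Agr2*, *Cldn18* and *Mucl3* were listed at 0 in all 5 samples. *Muc6* was −0.75 and *Tff1* 1.66 to 1.67 in every sample, both below the filter.

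*Tff2* and *Ctse* passed the filter there and could be tested, since the choice of members did not use this contrast. *Tff2* was 3.33, 3.32 and 3.37 in Id3f/f and 3.33 and 3.37 in Clec4fCreId3f/f samples, a difference of 0.01 (standard error 0.02, limma adjusted p = 0.792). *Ctse* was 3.72, 3.70 and 3.64 against 3.67 and 3.68, a difference of −0.01 (standard error 0.03, limma adjusted p = 0.816). In this limma fit, 0 of 2 members had an adjusted p under 0.05 and 0 had an unadjusted p under 0.05, where 6.44% of the 12833 tested genes had an adjusted p under 0.05, 3.08% higher and 3.37% lower. The groups of both genes overlapped, where those of 20.2% and 21.7% of tested genes did not, with higher and lower values in Clec4fCreId3f/f samples, and no difference was detectable at these levels. *Xist* was 6.33 to 6.38 in Id3f/f and 9.76 to 9.84 in Clec4fCreId3f/f samples and *Ddx3y*, on the Y chromosome, at least 9.43 and at most 7.01, so that genotype and sex cannot be told apart.

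The relatives of the members were compared in the same fits. *Tff3*, the trefoil peptide of intestinal goblet cells, was 5.10, 5.06 and 5.66 in tumour-free and 8.90, 8.74 and 8.91 in tumour-bearing TIM4+CD206+ KCs, a rise of 3.58 (standard error 0.26, limma adjusted p = 0.000266). In the other subset it rose by 4.37 (standard error 0.24, adjusted p = 8.69e-05), so that all 3 genes of the trefoil cluster were higher with tumour. *Gkn3* had a rise of 1.77 (limma adjusted p = 0.00612) among TIM4+CD206+ and of 3.96 (0.0472) among TIM4+CD206hi KCs. In the latter subset its tumour-free values were at most 3.11, so that it passed the filter through its tumour-bearing samples only. There its adjusted p was 0.158 without tumour-free replicate 1 and 0.103 without tumour-free replicate 3, and the gene passed the filter in 8 alternatives only. *Pdia4* (−0.21 and 0.09) and *Pdia6* (−0.14 and −0.16), which encode other disulfide isomerases, did not pass the test, so that 2 of 4 tested relatives rose in each subset. *Agr3*, the paralog of *Agr2*, was listed at 0 in all 12 samples of the 2 subsets.

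Other mucins that passed the filter were membrane mucins. *Muc1* rose by 3.64 and 4.79 in the 2 subsets (limma adjusted p = 0.00113 and 0.000108), and *Muc13* by 1.48 and 3.58 (adjusted p = 0.00916 and 0.00673). *Muc4* (3.00, adjusted p = 0.00346) and *Muc3* (2.54, adjusted p = 0.0425) rose in TIM4+CD206hi KCs and were below the filter in TIM4+CD206+ KCs. The call of *Muc3* was lost in 7 of its alternatives. *Muc2*, the gel-forming mucin of intestine, was listed at 0 in the TIM4+CD206+ table and was at most 2.67 in TIM4+CD206hi KCs. *Muc5b* was at most 3.00 there. In all, 2 of 2 tested other mucins rose in TIM4+CD206+ KCs and 4 of 4 in TIM4+CD206hi KCs, of 8 in the table.

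Of other pit and pyloric gland genes, 11 of 15 tested rose in TIM4+CD206+ KCs and 11 of 14 in TIM4+CD206hi KCs, with 0 lower in either. Their median differences were 2.79 and 4.18, beside 0.02 and 0.03 over all tested genes. *Krt20*, a keratin of gastric surface and intestinal cells, rose by 4.28 and 6.16 (limma adjusted p = 0.000155 and 3.65e-05). *Lypd8* rose by 4.77 and 5.48, *Tspan8* by 4.01 and 5.29, and *Vsig1*, an adhesion protein of gastric epithelium, by 2.03 and 5.27. Of the genes of chief, parietal and endocrine cells, 10 and 6 of 16 in the table were listed at 0, and 12 and 11 of 16 were below the filter. Of that list 2 of 4 and 2 of 5 tested genes rose, *Pgc*, which encodes pepsinogen C, by 1.11 and 2.04 (adjusted p = 0.00932 and 0.0021, the second in a gene that passed the filter through its tumour-bearing samples only) and *Car2*, a carbonic anhydrase, by 1.84 and 2.37 (adjusted p = 0.0237 and 0.0041). *Atp4a*, *Atp4b*, *Gast* and *Ghrl* were below the filter in both subsets.

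The machinery of mucus and O-glycans changed in part. Of this list 6 of 21 tested genes rose in TIM4+CD206+ KCs and 13 of 24 in TIM4+CD206hi KCs. *Gcnt3*, a branching enzyme of mucin glycans, rose by 2.79 and 5.17 (limma adjusted p = 0.000594 and 4.16e-05), and *Clca1*, secreted with goblet cell mucus, by 1.36 and 5.15 (adjusted p = 0.0204 and 0.000186). *Bcas1* rose by 2.16 and 3.97. *Ern2*, a stress sensor of mucus-secreting cells, rose by 4.51 among TIM4+CD206hi KCs (adjusted p = 0.0001), and its difference was 1.52 among TIM4+CD206+ KCs (adjusted p = 0.107, and 0.0132 with the replicate block). General secretory genes of the list such as *Xbp1* differed by 0.26 and 0.86 and did not pass the test.

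Transcription factors of foregut and stomach rose in 4 of 15 tested genes in TIM4+CD206+ KCs and in 16 of 21 in TIM4+CD206hi KCs. The epithelial ETS factors *Elf3* (3.92 and 4.35) and *Ehf* (1.93 and 3.72) rose in both. *Gata5* rose by 3.69 in TIM4+CD206hi KCs (limma adjusted p = 0.00033), and its difference was 0.68 in TIM4+CD206+ KCs (adjusted p = 0.104, and 0.0478 with the replicate block). *Klf5* rose by 3.67 in TIM4+CD206hi KCs (adjusted p = 0.00019) and was below the filter in TIM4+CD206+ KCs. *Sox2* and *Barx1*, factors of the stomach, were below the filter in both. Of the intestinal factors, *Cdx1* was below it as well, and *Cdx2* was below it in TIM4+CD206+ KCs and differed by 1.75 in TIM4+CD206hi KCs (adjusted p = 0.000715), where it passed the filter through its tumour-bearing samples only.

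Of other epithelial claudins 2 of 8 and 4 of 8 tested genes rose. *Cldn7* rose by 2.68 and 4.34 and *Cldn6* by 1.80 and 3.09. *Cldn2* (3.14) and *Cldn23* (3.16) rose in TIM4+CD206hi KCs, and in TIM4+CD206+ KCs their differences of 1.55 and 0.41 did not pass the test (limma adjusted p = 0.058 and 0.273), the former being 0.00734 with the replicate block. Of other aspartic proteases, *Pgc* was the one that rose, of 5 tested in each subset, and *Ctsd*, the abundant cathepsin D of macrophages, differed by 0.27 and 0.36 without passing the test.

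Genes that mark the classical type of human pancreatic carcinoma, to which several members belong, rose in 11 of 11 tested genes that are no members in TIM4+CD206+ KCs and in 10 of 12 in TIM4+CD206hi KCs. The lists share genes, so their counts are not separate. *Anxa10*, *Krt20*, *Tspan8* and *Vsig2* are also in the pit and pyloric gland list, *Tff3* is also among the relatives, and *Pgc* is in several lists. In the total over the lists below, each gene is counted once. *Cdh17*, a cadherin, rose by 3.69 and 5.37, and *Lgals4*, a galectin, by 5.15 and 4.58. *Lgals4* shares near-identical sequence with *Lgals6* and its value is uncertain. Of genes of the basal-like type, 3 of 8 and 7 of 10 tested genes rose and 15 and 13 of 23 were below the filter. *Krt7* (4.71 and 5.37), *Anxa8* (3.58 and 4.66) and *Krt14* (2.43 and 3.13) rose in both subsets and *Areg* (3.15) in TIM4+CD206hi KCs. *Ly6d* fell by 0.99 in TIM4+CD206+ KCs (limma adjusted p = 0.0269), a call lost without any 1 of 5 of the 6 samples. *Trp63* and *Krt5*, known basal genes, were below the filter in both subsets. Over the 10 lists together, without the members, 35 of 84 tested genes rose and 1 fell in TIM4+CD206+ KCs and 62 of 98 rose and 0 fell in TIM4+CD206hi KCs, beside 2.55% and 5.21% of all tested genes towards higher values. Of the tested genes, 1 in TIM4+CD206+ and 8 in TIM4+CD206hi KCs had tumour-free values that were all under the filter. All 8 of the latter were among those that rose, so these counts are a description. More of the tested genes may owe their test to tumour-bearing samples, since a regularized tumour-free value above the filter does not show reads. *Pgc*, listed at 0 in the third table, was 4.10 in every tumour-free TIM4+CD206+ sample.

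**Figure D4:**
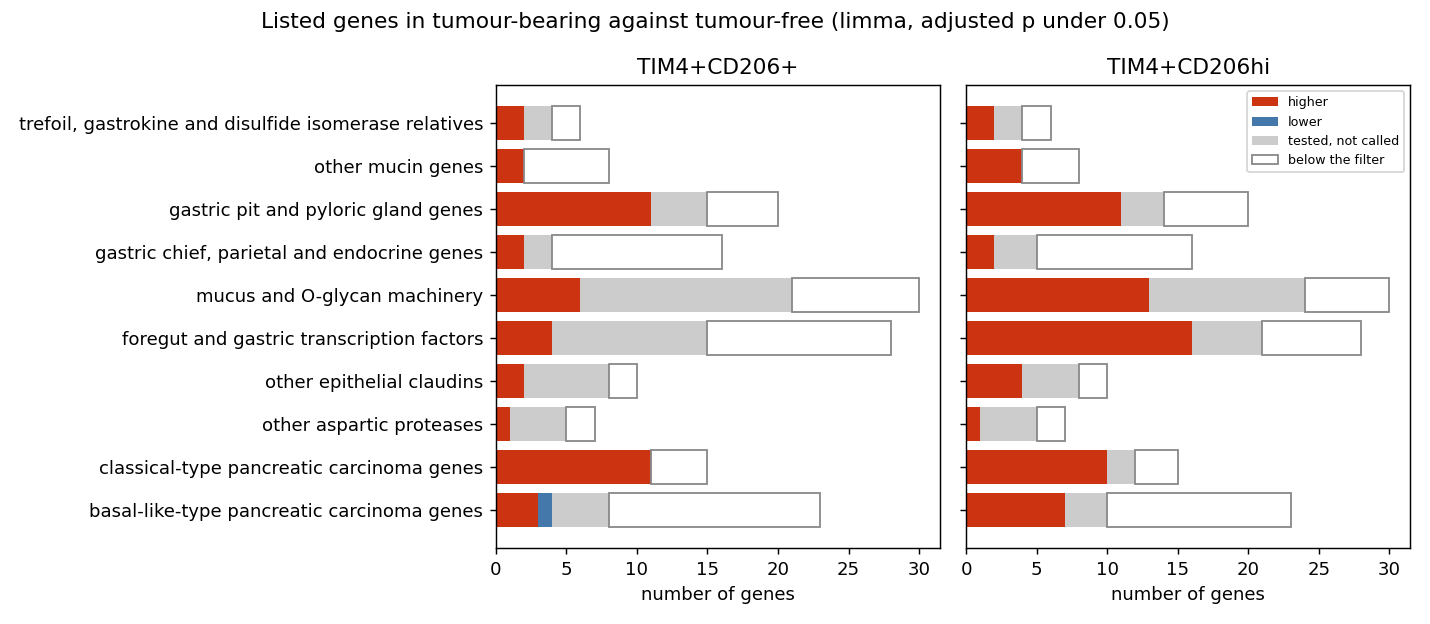
Number of genes (horizontal axes) of 10 lists, without the members, that were higher, lower or not called in limma (adjusted p under 0.05) or below the filter, in both subsets. Some genes are in several lists and are counted in each. Pit and pyloric gland genes and classical-type carcinoma genes are mostly higher in both subsets, transcription factors in TIM4+CD206hi KCs, and 12 and 11 of 16 chief, parietal and endocrine genes are below the filter.

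The 10 other genes whose profile was most like the mean profile of the members were *Gpa33*, *Mcpt2*, *Slc44a4*, *Anxa10*, *Cdhr2*, *Gcnt3*, *Vil1*, *2210407C18Rik*, *Anxa13* and *Tff3*. The measure was the root mean square difference over the 12 samples of both subsets, each gene centred on its tumour-free mean, among 13102 genes. It was 0.24 for *Gpa33* and 0.37 for *Tff3*, and 0.44 for the nearest member, *Agr2*, and 2.80 for the farthest, *Muc6*. *Gpa33* and *Cdhr2* encode surface and brush border proteins of intestinal epithelium, *Vil1* encodes villin of the brush border, *Anxa10* is a gastric annexin, and *Mcpt2* encodes a protease of mucosal mast cells. Their differences ran from 2.71 to 3.58 in TIM4+CD206+ and from 4.35 to 5.17 in TIM4+CD206hi KCs. The likeness was computed on the contrast that chose the members and is a description.

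Epithelial markers were higher with tumour, as most members were. The mean of *Krt8*, *Krt18*, *Krt19* and *Epcam* was 7.74 to 8.49 in tumour-free and 11.35 to 11.56 in tumour-bearing TIM4+CD206+ KCs. In TIM4+CD206hi KCs it was 7.59 to 8.34 against 12.52 to 12.67. Among the tumour-bearing samples the order was not shared. In both subsets replicate 2 had the highest marker mean and the lowest mean of the members (11.56 and 6.85, 12.67 and 8.69). Replicate 3 had the lowest marker mean and the highest mean of the members (11.35 and 7.31, 12.52 and 9.30). The mean of the members weighs *Muc5ac* and *Muc6* like the others. By the members' summed linear share, replicate 1 was highest in TIM4+CD206+ KCs (173.3 ppm against 171.7 in replicate 3). Replicate 3 was highest by that share in TIM4+CD206hi KCs (343 ppm), and replicate 2 was lowest in both subsets (118 and 253 ppm). These orders were not tested. Of 13 markers of pancreatic tumour epithelium, 10 of 12 tested rose in TIM4+CD206+ and 11 of 12 in TIM4+CD206hi KCs, and their summed level was 11.02 to 12.19 against 15.14 to 15.36 and 11.18 to 11.48 against 15.62 to 15.76. None of the 13 was at 0 in these tables. *Epcam*, a surface protein of epithelia, was 6.06 ± 0.39 (SD, n = 3) in tumour-bearing TIM4+CD206+ and 10.11 ± 0.07 in TIM4+CD206hi KCs, and *Krt19* was 13.42 ± 0.16 and 13.50 ± 0.07. *Epcam*, *Cldn18* and *Mucl3* thus had unlike deposited values in the tables of the subsets, while *Krt19* and *Tff1* had like values. The tables were normalized and transformed separately, and the transformation draws genes with few reads towards their mean. These values are set side by side, and the contrast between the genes was not tested. The study describes mRNA of *Krt8* and *Krt19* in KCs of tumour-bearing mice as compatible with phagocytosis of KPC cells, without excluding contamination. In bulk samples, more cells of a type, more RNA per cell and RNA taken up by KCs cannot be told apart. The part of tumour or other epithelial RNA in the members' values was not tested.

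Markers of other cells were measured beside the members. Bile duct markers rose in 5 of 10 tested genes in TIM4+CD206+ KCs, with a summed level of 10.37 to 12.91 against 14.51 to 14.79. Among TIM4+CD206hi KCs 10 of 12 rose and 1 fell, with a summed level of 15.57 to 15.98 against 16.01 to 16.50. The gene that fell was *Aqp1*, by 1.03 (limma adjusted p = 0.0122). Its highest value was 15.93, and that of *Spp1*, which rose by 3.96, was 15.43, so that both weigh heavily in that sum. Bile duct and tumour epithelium lists share *Krt7*, *Krt19* and *Epcam*. Acinar and islet markers changed in 0 of 4 and 0 of 3 tested genes in limma, with *Ins2* and *Iapp* at 0 in both tables and a summed level of 10.58 to 11.24 against 11.40 to 11.69 in TIM4+CD206+ KCs. That level in TIM4+CD206hi KCs was 9.96 to 10.60 against 10.24 to 10.62. The highest value of *Cela1* was 11.64 in TIM4+CD206+ and 10.55 in TIM4+CD206hi KCs, so that this gene weighs heavily in both sums. Its differences of 0.60 and 0.29 did not pass the test (limma adjusted p = 0.199 and 0.496). Hepatocyte markers fell in 7 and 6 of 10 genes, where *Alb*, which encodes albumin, fell by 2.29 and fell by 2.06 on the log2 scale. Their part in the members' values was not tested.

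KC markers were at high values in every group. *Clec4f* was 19.28 ± 0.33 (SD, n = 3) and 18.49 ± 0.02 in tumour-free and tumour-bearing TIM4+CD206+ KCs and 18.29 ± 0.14 and 17.71 ± 0.10 in TIM4+CD206hi KCs, and its differences did not pass the test (limma adjusted p = 0.0925 and 0.119). *Timd4*, which encodes the sorted protein TIM4, fell by 0.75 in TIM4+CD206+ KCs (limma adjusted p = 0.0463), a call lost in 8 of its alternatives. Of 14 KC markers 3 fell in TIM4+CD206+ and 0 in TIM4+CD206hi KCs. Neutrophil markers rose in 5 of 8 genes in each subset, although the sort removed Ly6G+ cells, and monocyte markers in 3 of 7, and sinusoidal endothelial markers fell in 0 and 3 of 10. The summed endothelial level was 17.08 to 18.31 in TIM4+CD206hi and 14.08 to 15.04 in TIM4+CD206+ KCs. T, NK and B cell markers fell in 2 and 1 of 10 genes, and stellate cell and fibroblast markers in 0 and 2 of 9.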

How the data were processed

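RNA-seq of 17 samples of sorted KCs was analysed. The authors amplified cDNA from 2 ng of RNA with a SMART-Seq kit, aligned paired reads with STAR 2.7.10a, counted genes with HTSeq and used DESeq2, per the methods and the submitters' processing notes. The notes name mm10, whereas the methods name GRCm39 or mm10. The tables hold no coordinates, and those printed are of GRCm38. The deposited values are log2 values of the 3 tables, made by the authors for each table on its own, with the features of regularized log values, although columns are named TPM. They hold no counts, and the depth in reads is not given in the sources used here, which leaves the precision of low values unknown. Of 25124 genes, 7370 (TIM4+CD206+), 5764 (TIM4+CD206hi) and 8447 (Id3) were listed at 0 in all samples.

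Samples were grouped by their labels. Groups were compared in limma 3.58.1 under R 4.3.3, its variance prior following the mean level, and p-values were adjusted by the Benjamini-Hochberg method over all genes with the value of 10 counts in at least 3 samples (2 in the Id3 table), at a threshold of 0.05, as a count test needs counts. The scripts were tested on simulated data. The members and gene lists were chosen with earlier results of these data known. Named genes are the members, up to 4 genes per list and direction with the largest called difference, fixed paralogs and markers, and the 10 most alike genes. *Sfta2*, *Muc2*, *Id3*, *Xist*, *Ddx3y*, *Ctsd*, *Xbp1*, *Cdx2*, *Pdia4*, *Pdia6* and genes named as below the filter were added after their values were seen. Exon lengths are of GENCODE M21 and promoters of RefSeq. Alternatives were no filter, a mean of 50 counts, median centring, quantile normalization, no trend, the replicate block and each sample left out. Same-numbered samples deviated together in TIM4+CD206+ KCs (r = 0.35, 0.56 and 0.15 across genes), so that the number is taken to pair them there, and not in the other tables. This pairing was read from the same data, since the labels give a replicate number only.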

Additional observations from a re-analysis of the deposited data

How the results depend on the processing

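The members' counts were 6 to 8 in TIM4+CD206+ and 8 or 9 in TIM4+CD206hi KCs under all alternatives run, 6 and 8 being all that passed the filter of a mean of 50 counts, and 0 in the Id3 comparison, where that filter left no member to test. Under the alternatives 228 member differences moved by less than 1 SD and 5 by more, which were 4 in TIM4+CD206hi KCs with quantile normalization (*Gkn1* 5.97, *Agr2* 4.94, *Cldn18* 4.49 and *Muc6* −0.41) and *Tff2* in the Id3 comparison, −0.01 with median centring against 0.01. Median centring moved the median of all genes tested in TIM4+CD206hi KCs by −0.16, which shifts every difference there. Quantile normalization gave 664 higher and 518 lower genes there against 758 and 295, and median centring 328 higher and 550 lower against 395 and 432 in the Id3 comparison.

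With the replicate block, 1026 genes against 469 were called in TIM4+CD206+ KCs, where the numbers were taken to pair the samples, and 8 of 8 members with it. In the Id3 comparison, where the samples share only a number, the block called 2089 against 827 genes and 8 against 3 listed genes. In TIM4+CD206hi KCs it called 909 against 1053 genes. The filter of a mean of 50 counts, which tests fewer genes, called 600 genes in TIM4+CD206hi KCs and 21 and 40 listed genes against 36 and 62. Without a filter 477 genes were called in the Id3 comparison. Leaving out 1 sample gave 231 to 1032 genes in TIM4+CD206+ KCs, 444 to 3633 in TIM4+CD206hi KCs and 17 to 1850 in the Id3 comparison, 1032 and 3633 being without tumour-free replicate 2 of their table and 1850 without Id3f/f replicate 3. Each single sample of TIM4+CD206+ KCs and of the Id3 comparison moved the count over 1.5 times, as did each of TIM4+CD206hi KCs except tumour-free replicate 3. The 17 and 19 genes were left without Clec4fCreId3f/f replicate 1 or 2. Listed genes called then ranged over 29 to 34, 42 to 69 and 0 to 5. The cause was not tested.

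Of single named genes under alternatives, 1200 values kept their side of the threshold, 40 lost a call, among them *Car2*, *Clca1*, *Epcam*, *Ly6d* and *Timd4* in TIM4+CD206+ KCs and *Gkn3*, *Muc3* and *Alb* in TIM4+CD206hi KCs, and 11 gained one. No called difference changed sign. Regularized values understate differences of genes with few reads, amplified libraries without molecular identifiers limit what depth can show, and with 3 samples a group the lowest members cannot be told from the floor.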

Other observations

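Among the listed genes, 3 of 45 tested differed between Clec4fCreId3f/f and Id3f/f KCs in limma, none of them a gastric secretory product. *Galnt6* (0.61, adjusted p = 0.0183) and *B3gnt3* (0.53, adjusted p = 0.0129), which encode enzymes of O-glycans, were higher and *Ctsd*, which encodes cathepsin D, was lower by 0.62 (adjusted p = 0.00295), where 6.44% of all tested genes were called. Leaving out either Clec4fCreId3f/f sample left 0 listed genes called, and leaving out Id3f/f replicate 1 left 1. The trefoil gene *Tff3* was 4.26 to 4.34 in Id3f/f and 4.28 to 4.31 in Clec4fCreId3f/f samples.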
